A study of Rattus norvegicus with 8 samples.

Results

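Vegfa, the main angiogenic growth factor, and the ligands of the epidermal growth factor receptor (EGFR) were followed through the first hour of a response to TGF-beta-1 (transforming growth factor beta 1) in rat intestinal epithelial cells. The genes were taken by symbol from the annotation of the array: of 8 symbols sought (Vegfa, Hbegf, Areg, Ereg, Tgfa, Btc, Egf and Egfr), 6 were annotated, each on 1 feature, among 9652 named genes in all. Hbegf and Egfr were not among the annotated symbols and were not analysed here. RIE-Ras cells, which were made from RIE cells by stable transfection of a plasmid for human H-Ras(12V), a constitutively active Ras, were compared with the parental RIE line, and each line had 4 two-channel arrays. On every array, cells exposed for 1 hr to TGF-beta-1 at 2 ng/ml were set against control cells of the same line. The labels do not say whether RIE-Ras is 1 clone or a pool of transfectants, nor whether the 4 samples of a line were separate cultures. A p-value here therefore reflects only how far these samples differ, and that spread may be technical.

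Vascular endothelial growth factor A, the product of Vegfa, is secreted and acts on endothelial receptors encoded by Kdr and Flt1; its transcript is induced by hypoxia through hypoxia-inducible factors (HIF) and by many growth factors. EGFR ligands are made as membrane-anchored precursors, which ADAM metalloproteases release, and they drive proliferation and wound closure in the intestinal epithelium. In intestinal epithelial cells transformed by Ras, EGFR ligands are known as autocrine growth factors. TGF-beta-1 inhibits the growth of many epithelial cells and signals through Smad transcription factors.

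The promoters of Vegfa and Areg are shown because these were the 2 genes whose ratios, relative to the array median, kept one sign on all 8 arrays. Vegfa lies on chromosome 9, Areg, Ereg and Btc on chromosome 14, Tgfa on chromosome 4 and Egf on chromosome 2. Promoter windows from RefSeq (build GRCr8) were matched for 5 of the 6 genes, all but Ereg, and the 250 bases before the annotated start are given, 5′ to 3′. For Vegfa the window was chr9:22452604-22452853 on the plus strand, the first of 2 in the table, and for Areg it was chr14:17265642-17265891 on the minus strand. Capitals mark every match, on either strand, to the motifs searched. For Smad proteins these were the short element CAGAC and the palindromic element GTCTAGAC. For hypoxia-inducible factors it was the response core ACGTG, for Sp1 the box GGGCGG and for AP-1 the site TGANTCA. The TATA box was searched as TATAAA, and the cAMP response element as TGACGTCA, which was added after the sequences had been read.
Vegfa: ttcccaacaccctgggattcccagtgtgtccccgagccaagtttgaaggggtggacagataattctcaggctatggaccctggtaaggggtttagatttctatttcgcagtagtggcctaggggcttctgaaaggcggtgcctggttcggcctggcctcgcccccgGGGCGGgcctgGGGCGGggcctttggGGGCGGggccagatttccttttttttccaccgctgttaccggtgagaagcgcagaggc
Areg: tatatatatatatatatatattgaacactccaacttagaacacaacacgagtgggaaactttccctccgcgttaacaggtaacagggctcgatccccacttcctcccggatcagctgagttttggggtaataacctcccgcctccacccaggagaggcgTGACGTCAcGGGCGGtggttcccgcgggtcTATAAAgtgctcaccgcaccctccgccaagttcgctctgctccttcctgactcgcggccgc
The Vegfa window held 3 GGGCGG boxes, which began 84, 73 and 58 bases before the start, and no match to the other motifs. GGGCGG was present in 30.5% of all 33469 promoter windows of this length. The Areg window held 1 TGACGTCA, 1 GGGCGG and 1 TATAAA, the last beginning 61 bases before the start, and TGACGTCA was present in 1.59% of all windows and TATAAA in 12.9%. CAGAC, found in 42.9% of all windows, was in neither, and ACGTG, found in 16.6%, was in neither. A match is a description of these letters and not a measured binding site. Bases further upstream were not searched, so the absence of a match holds for these 250 bases only.

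The deposited values are log2 ratios of treated over control signal, and each array was centred on its median, so that 0 is the response of the median feature of that array. The array medians before centring lay between 0.202 and 0.454. Ratios carry no expression level, so the genes cannot be ordered by abundance and the markers of cell type cannot show what the cells were; of 7 measured epithelial markers, none changed past the threshold in either line (limma, 1 with an unadjusted p under 0.05 in RIE-Ras cells and 0 in RIE cells). Over all features, 19.3% had an unadjusted p under 0.05 in RIE-Ras cells and 17.5% in RIE cells, and such counts below are to be read against these shares. Of the markers of other cell types, none of 6 endothelial, 5 leukocyte and 6 mesenchymal genes measured passed in either line (limma, with 0, 1 and 2 at an unadjusted p under 0.05 in RIE-Ras cells and 1, 0 and 2 in RIE cells). Channel 2 held the treated RNA throughout and no dye swap is stated. A dye effect on a feature and its response to TGF-beta-1 therefore cannot be told apart, within a line or over both lines.

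Vegfa lay above the array median on every array of both lines. Its log2 ratios were 1.87, 1.06, 0.47 and 1.09 on RIE-Ras replicates 1 to 4, against 1.93, 1.40, 0.85 and 0.97 on RIE replicates 1 to 4. Replicate 1 was the highest array in each line and replicate 3 the lowest, and the ranges of the lines overlapped. As deposited, before centring, these were treated-over-control folds of 4.19, 2.78, 1.73 and 2.44 in RIE-Ras cells, against 4.45, 3.42, 2.33 and 2.69 in RIE cells. Vegfa was the highest of the 6 genes on all 8 arrays, and it stood between the 84.8th and the 99.5th percentile of all features of its array.

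Within each line the Vegfa response did not pass the threshold. The mean was 1.12 ± 0.57 in RIE-Ras cells and 1.29 ± 0.49 in RIE cells (log2 ± SD, n = 4 each), which is 2.17-fold and 2.44-fold. In the fit over all features the moderated SE was 0.24 in both lines, with limma adjusted p = 0.0708 in RIE-Ras cells and 0.0869 in RIE cells. None of the 6 genes passed an adjusted p of 0.05 in either line, and 2 in each, Vegfa and Areg, had an unadjusted p under 0.05, where 19.3% of all features did in RIE-Ras cells and 17.5% in RIE cells. Of all 17402 features, 0.419% passed in RIE-Ras cells (0.299% higher and 0.121% lower) and 0.0747% in RIE cells (0.0172% higher and 0.0575% lower), so calls were rare throughout. Few features were nonetheless higher than Vegfa: it ranked 133rd of 17402 by mean ratio in RIE-Ras cells and 80th in RIE cells.

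Taken over both lines, Vegfa rose and Areg fell relative to the array median. The mean of the line means was 1.20 ± 0.17 for Vegfa (log2 ± moderated SE, n = 8, limma adjusted p = 0.0181), a 2.30-fold change with a 95% interval from 0.82 to 1.58, and Vegfa was above 0 on 8 of 8 arrays. For Areg, amphiregulin, a heparin-binding EGFR ligand, it was -0.65 ± 0.11 (adjusted p = 0.0286), 0.638-fold, with an interval from -0.91 to -0.39 and 8 of 8 arrays below 0. In this comparison, which was chosen after the values had been seen, 2 of the 6 genes passed, where 3.49% of all features did (1.16% higher and 2.34% lower). In the same comparison 2 of 6 mesenchymal markers fell, Vim (vimentin, -0.87 ± 0.18, adjusted p = 0.0454) and Col1a2 (a type I collagen chain, -1.23 ± 0.20, adjusted p = 0.0258), calls lost without 6 and 5 of the 8 single arrays, and their part in the Vegfa and Areg values was not tested. The Vegfa call was lost without RIE replicate 2 (adjusted p = 0.0568), RIE replicate 3 (0.0653) or RIE-Ras replicate 2 (0.0631), while its mean stayed between 1.08 and 1.31. The Areg call was lost without any single array other than RIE replicate 1 (adjusted p from 0.0552 to 0.108), with means from -0.71 to -0.58, and with the replicate number as a block neither passed (adjusted p = 0.0528 for Vegfa and 0.105 for Areg).

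**Figure D1:**
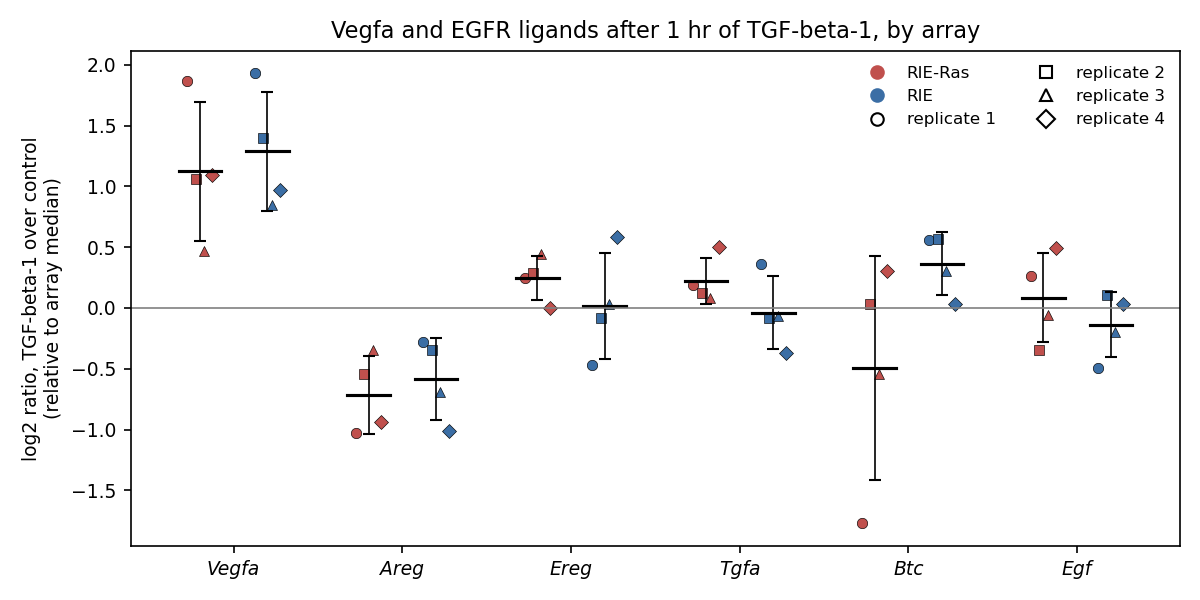
Log2 ratio of TGF-beta-1 treated over control signal, relative to the array median, for the 6 genes on each of 8 arrays (red, RIE-Ras; blue, RIE; marker shape, replicate number; bar and whisker, mean and SD, n = 4). Vegfa lies above 0 on all 8 arrays, from 0.47 to 1.93, and Areg below 0 on all 8, from -1.03 to -0.28.

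Areg lay below the array median on every array of both lines. Its log2 ratios were -1.03, -0.54, -0.35 and -0.94 on RIE-Ras replicates 1 to 4, against -0.28, -0.35, -0.69 and -1.01 on RIE replicates 1 to 4. The lines overlapped, and the replicate numbers of the lowest arrays differed between them. The means were -0.71 ± 0.32 in RIE-Ras cells and -0.58 ± 0.34 in RIE cells (SD, n = 4 each), with limma adjusted p = 0.0770 in RIE-Ras cells and 0.148 in RIE cells. Without centring the treated signal was close to the control signal on several arrays: the deposited signed folds, in which a negative value means lower in treated cells, were -1.77, -1.09, -1.02 and -1.67 in RIE-Ras cells, against -1.04, 1.02, -1.25 and -1.47 in RIE cells. Over both lines the uncentred mean was -0.33 (limma adjusted p = 0.0462). By line it was -0.43 in RIE-Ras cells (adjusted p = 0.0948) and -0.23 in RIE cells (adjusted p = 0.306). The Areg means thus kept their sign without centring but were smaller in size. The sign on every array was not kept, since RIE replicate 2 stood at 1.02. Of all features, 5.08% were below 0 on all 8 arrays after centring, and 3.03% were above 0 on all 8. Ribosomal protein genes (49 measured, a group looked at after the values had been seen) also had medians below 0. These medians were -0.62, -0.98, -0.68 and -0.76 on RIE-Ras replicates 1 to 4, against -0.21, -0.68, -0.96 and -1.67 on RIE replicates 1 to 4. The part of this shared fall in the Areg ratios was not tested.

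The genes for the other EGFR ligands had smaller or less regular ratios. Ereg, epiregulin, stood at 0.25, 0.29, 0.44 and 0.00 on RIE-Ras replicates 1 to 4, against -0.47, -0.08, 0.03 and 0.58 on RIE replicates 1 to 4. In RIE-Ras cells none lay below 0.00, and in RIE cells the arrays lay on both sides of 0, with means of 0.25 ± 0.18 and 0.02 ± 0.43 (SD, n = 4 each; limma adjusted p = 0.442 and 0.965). Tgfa, transforming growth factor alpha, stood at 0.19, 0.12, 0.08 and 0.50 on RIE-Ras replicates 1 to 4, against 0.36, -0.08, -0.07 and -0.37 on RIE replicates 1 to 4. All 4 RIE-Ras arrays and 1 RIE array were positive, the lines overlapped, and the means were 0.22 ± 0.19 and -0.04 ± 0.30 (adjusted p = 0.400 and 0.908). Without centring Tgfa passed in RIE-Ras cells (0.51, adjusted p = 0.0206) and not in RIE cells (0.32, adjusted p = 0.0699). Calls were common in that setting: 3657 of 17402 features passed in RIE-Ras cells and 4061 in RIE cells.

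Egf, the founding ligand of the family, stood at 0.26, -0.35, -0.06 and 0.49 on RIE-Ras replicates 1 to 4, against -0.49, 0.11, -0.20 and 0.03 on RIE replicates 1 to 4. Each line had 2 positive and 2 negative arrays, with means of 0.09 ± 0.37 in RIE-Ras cells and -0.14 ± 0.27 in RIE cells (SD, n = 4 each; limma adjusted p = 0.805 and 0.685). For the mean of both lines the 95% interval was -0.28 to 0.23 for Egf, -0.13 to 0.39 for Ereg and -0.12 to 0.31 for Tgfa. These intervals hold for centred values. Without centring the means over both lines were 0.45 for Ereg (adjusted p = 0.0241), 0.41 for Tgfa (0.00560) and 0.29 for Egf (0.0537), so Ereg and Tgfa passed there. That setting keeps the array medians of 0.202 to 0.454 in the ratios, and calls were common in it. By line, 3657 of 17402 features passed in RIE-Ras cells and 4061 in RIE cells.

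Btc, betacellulin, a ligand of EGFR and ErbB4, varied most. Its log2 ratios were -1.77, 0.03, -0.54 and 0.30 on RIE-Ras replicates 1 to 4, against 0.56, 0.57, 0.30 and 0.03 on RIE replicates 1 to 4. RIE-Ras replicate 1 was far below the other arrays. On that array the deposited signed fold was -2.97, a value shared by 36 features where the neighbouring hundredths held 0.75 on average, and 6.23% of the features of that array lay at such repeated values, against 0.42% to 0.99% on the other RIE-Ras arrays and 0% on RIE arrays; its part in the Btc ratio was not tested. The means were -0.49 ± 0.92 in RIE-Ras cells and 0.37 ± 0.26 in RIE cells (SD, n = 4 each), neither past the threshold (limma adjusted p = 0.396 and 0.547), and without RIE-Ras replicate 1 the RIE-Ras mean was -0.07.

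The next comparison asked whether activated Ras altered the responses. The difference RIE-Ras minus RIE was -0.17 ± 0.33 for Vegfa (log2 ± moderated SE, limma adjusted p = 0.894), with a 95% interval from -0.93 to 0.59. For Areg it was -0.13 ± 0.23, with an interval from -0.65 to 0.39. The intervals do not show that the lines responded alike: for Vegfa they allow a response in RIE-Ras cells lower than in RIE cells by 0.93 on the log2 scale or higher by 0.59. The sign of the Vegfa difference turned without RIE replicate 1 or RIE-Ras replicate 3, to 0.05 in each case.

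For the other ligands the differences were 0.23 ± 0.23 for Ereg, 0.26 ± 0.19 for Tgfa, 0.22 ± 0.22 for Egf and -0.86 ± 0.41 for Btc, with adjusted p between 0.503 and 0.768. The Btc difference, with an interval from -1.80 to 0.08, was -0.43 without RIE-Ras replicate 1. None of the 6 genes passed an adjusted p of 0.05 or had an unadjusted p under 0.05, while 0% of all features passed and 10.7% had an unadjusted p under 0.05. The arrays of the lines overlapped for all 6 genes, whereas they did not overlap for 7.50% of all features.

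**Figure D2:**
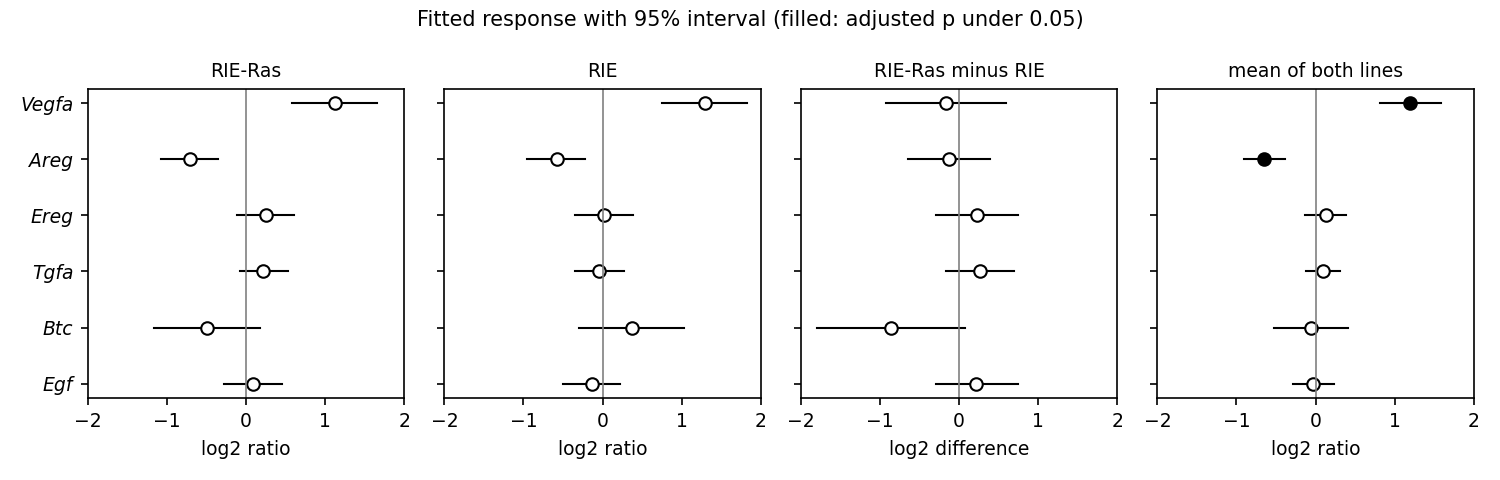
Fitted log2 response of the 6 genes with its 95% interval in RIE-Ras cells, in RIE cells, for the difference RIE-Ras minus RIE and for the mean of both lines (filled points, limma adjusted p under 0.05). Filled points occur only for the mean of both lines, for Vegfa at 1.20 and Areg at -0.65, and all 6 intervals of the difference include 0.

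Btc, Areg, Ereg and Epgn lie next to each other, in this order, on chromosome 14 of the GRCr8 gene table. These neighbours had unlike ratios. Ereg exceeded Areg on 7 of 8 arrays, by up to 1.28 in RIE-Ras cells and up to 1.59 in RIE cells, and RIE replicate 1, at -0.19, was the exception. Epgn, epigen, a further EGFR ligand, averaged -0.06 in RIE-Ras cells and 0.27 in RIE cells, with limma adjusted p of at least 0.345.

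The genes whose ratios lay nearest to those of Vegfa over the 8 arrays, by root mean square difference on the log2 scale, were Smad7 (0.49), Bhlhe40 (0.51), Dlx2 (0.54), Gse1 (0.67) and Ccn2 (0.68). Smad7 encodes the inhibitory Smad of TGF-beta feedback, Bhlhe40 a helix-loop-helix repressor, Dlx2 a homeobox transcription factor and Ccn2 connective tissue growth factor. Over the 8 arrays, Vegfa correlated with Smad7 and with Gse1 at r = 0.80, with Bhlhe40 at r = 0.55, with Ccn2 at r = 0.43 and with Dlx2 at r = 0.34, as a description of arrays that share channel and processing. Replicate 1 was the highest array of each line for Vegfa and for Smad7, with 1.75 on RIE-Ras replicate 1 and 2.59 on RIE replicate 1 for Smad7. The lowest of the 8 Vegfa ratios was 0.47, and 7 of 17402 features (0.0402%) were at least that high on all 8 arrays. The 6 named ones were Vegfa, Smad7, Gadd45b, Junb, Bhlhe40 and Dlx2. This bound was set by Vegfa itself, so the count is a description.

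**Figure D3:**
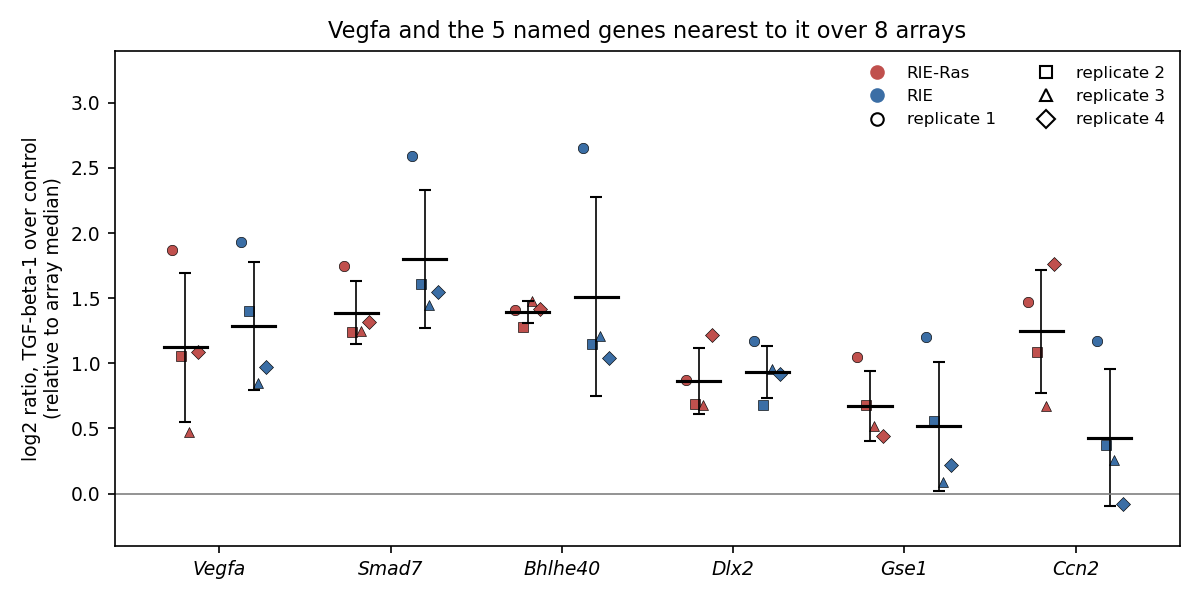
Log2 ratio of treated over control signal, relative to the array median, for Vegfa and the 5 named genes nearest to it over 8 arrays (red, RIE-Ras; blue, RIE; marker shape, replicate number; bar and whisker, mean and SD, n = 4). Smad7, Bhlhe40 and Dlx2 lie at 0.68 or higher on all 8 arrays, and Ccn2 averages 1.25 in RIE-Ras cells and 0.43 in RIE cells.

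Of the other VEGF ligands and their receptors, 9 of 9 were measured and none passed in either line by limma (3 with an unadjusted p under 0.05 in RIE-Ras cells and 2 in RIE cells, beside 19.3% and 17.5% of all features). Their medians were -0.07 in RIE-Ras cells and -0.04 in RIE cells, beside medians over all features of 0.01 and -0.01. Vegfb, a ligand of Flt1, was at -0.52, -0.52, -0.35 and -0.23 on RIE-Ras replicates 1 to 4, against -0.06, -0.06, -0.32 and -0.05 on RIE replicates 1 to 4. All 8 Vegfb arrays were below 0, opposite to Vegfa, and its mean over both lines was -0.27 ± 0.07 (moderated SE, adjusted p = 0.0752). Pgf, placental growth factor, averaged 0.53 ± 0.15 in RIE-Ras cells and 0.10 ± 0.15 in RIE cells. Kdr, the main receptor of VEGF-A, averaged -0.11 ± 0.13 in RIE-Ras cells and -0.50 ± 0.13 in RIE cells (adjusted p = 0.140 in RIE cells). Nrp2, a co-receptor, was positive on all 8 arrays, with means of 0.30 ± 0.09 in RIE-Ras cells and 0.17 ± 0.09 in RIE cells.

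Among HIF subunits, their regulators and hypoxia-induced genes, 24 of 28 were measured and none was higher past the threshold in any comparison. Their medians were -0.11 in RIE-Ras cells and -0.19 in RIE cells, with 8 and 10 of 24 members positive, and by limma none passed in either line (4 of 24 with an unadjusted p under 0.05 in RIE-Ras cells and 7 of 24 in RIE cells, beside 19.3% and 17.5% of all features). Over both lines 3 of 24 members passed, all lower, where 2.34% of all features passed lower and 1.16% higher. All 3 encode glycolytic enzymes that HIF induces: Pgk1 (-0.76 ± 0.15), Ldha (-0.68 ± 0.12) and Aldoa (-0.41 ± 0.07), with limma adjusted p = 0.0425, 0.0301 and 0.0258. Each of these calls was lost without 6 or 7 of the 8 single arrays. Ribosomal protein genes (49 measured, a group looked at after the values had been seen) had medians of -0.80 in RIE-Ras cells and -0.93 in RIE cells, and their part in the ratios of these 3 genes was not tested. Hif1a, the oxygen-regulated subunit, averaged 0.06 ± 0.10 in RIE-Ras cells and -0.36 ± 0.10 in RIE cells (adjusted p = 0.151 in RIE cells), and Ankrd37, a HIF target, -0.91 ± 0.22 and -0.46 ± 0.22. Adm, adrenomedullin, an angiogenic peptide and HIF target, differed by -0.71 ± 0.32 between RIE-Ras and RIE cells (adjusted p = 0.480).

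Of the other ErbB ligands and receptors, 6 of 8 were measured and none passed in any comparison by limma (0 with an unadjusted p under 0.05 in RIE-Ras cells and 1, Nrg1, in RIE cells), with medians of 0.23 in RIE-Ras cells and 0.05 in RIE cells. Nrg1, neuregulin 1, a ligand of ErbB3 and ErbB4, was positive on all 8 arrays, with means of 0.28 ± 0.15 in RIE-Ras cells and 0.36 ± 0.15 in RIE cells. Erbb2, the co-receptor without a ligand of its own, averaged -0.17 ± 0.13 in RIE-Ras cells and -0.23 ± 0.13 in RIE cells. In the list of ligand shedding, 8 of 14 were measured, with medians of 0.02 in RIE-Ras cells and -0.01 in RIE cells. Timp3, an inhibitor of the shedding protease ADAM17, was at 0.77, 0.60, 0.46 and 1.07 on RIE-Ras replicates 1 to 4, against 0.25, 0.23, -0.15 and 0.68 on RIE replicates 1 to 4. Over both lines Timp3 rose (0.49 ± 0.11, limma adjusted p = 0.0478) and the metalloprotease gene Adam15 fell (-0.40 ± 0.08, adjusted p = 0.0376), calls that were lost without 8 and 7 of the 8 single arrays. In that comparison 3.49% of all features passed, 1.16% higher and 2.34% lower. Adam10, the protease that sheds Egf and Btc in mouse cells, averaged 0.49 ± 0.14 in RIE-Ras cells and -0.09 ± 0.14 in RIE cells, a difference of 0.58 ± 0.20 (adjusted p = 0.376).

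Among adaptors and inhibitors of EGFR, 14 of 18 were measured, with medians of -0.02 in RIE-Ras cells and -0.00 in RIE cells, and 1 passed over both lines: Sos1, the exchange factor that links EGFR to Ras, rose (0.41 ± 0.08, adjusted p = 0.0435), on 4 features whose means ran from 0.24 to 0.98 in RIE-Ras cells and from 0.01 to 0.78 in RIE cells. That call was lost without 7 of the 8 single arrays, and over both lines 3.49% of all features passed. Among early targets of EGFR and ERK, 20 of 26 were measured. In RIE-Ras cells 1 passed, the ERK phosphatase gene Dusp6, which fell by 0.90 ± 0.12 (limma adjusted p = 0.0386), a call lost without 7 of the 8 single arrays. Of all features, 0.419% passed in RIE-Ras cells. None of the list passed in RIE cells. By limma, 8 of 20 had an unadjusted p under 0.05 in RIE-Ras cells and 7 of 20 in RIE cells, beside 19.3% and 17.5% of all features. The list medians were -0.04 in RIE-Ras cells and 0.07 in RIE cells. Over both lines 4 of 20 passed, where 3.49% of all features did (1.16% higher and 2.34% lower). The feedback inhibitors Dusp6 (-0.84 ± 0.08), Spry4 (-0.83 ± 0.10) and Dusp5 (-0.39 ± 0.07) fell and Junb rose (1.59 ± 0.27), with limma adjusted p from 0.00983 to 0.0300. Junb is also counted among the TGF-beta and Smad early targets below. The part of the lower ribosomal protein genes in these falls was not tested. The Dusp6 call over both lines was lost only without RIE-Ras replicate 2, the Spry4 call without that array or RIE replicate 3, and the Dusp5 and Junb calls without any array but RIE replicate 1. Egr3, an ERK-induced zinc finger gene, averaged -0.53 in RIE-Ras cells and 0.58 in RIE cells, with a difference of -1.11 ± 0.32 (adjusted p = 0.321).

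Other secreted growth factors had medians of 0.09 in RIE-Ras cells and 0.25 in RIE cells over 22 of 25 measured genes, none of which passed in either line (limma, 3 of 22 with an unadjusted p under 0.05 in RIE-Ras cells and 6 of 22 in RIE cells, beside 19.3% and 17.5% of all features). Over both lines Ccn2, also counted among the TGF-beta and Smad early targets below, rose (0.84 ± 0.16, limma adjusted p = 0.0339), where 1.16% of all features did. The Ccn2 call was lost without any array but RIE replicate 1. Csf1, which encodes a macrophage growth factor, averaged 0.77 ± 0.21 in RIE-Ras cells and 0.02 ± 0.21 in RIE cells. Fgf2, basic fibroblast growth factor, an angiogenic factor, differed by 0.67 ± 0.24 between the lines (adjusted p = 0.401). TGF-beta and Smad early targets were the list with the highest medians, 0.76 in RIE-Ras cells and 0.49 in RIE cells over 14 of 18 measured genes, with 3 in RIE-Ras cells and 2 in RIE cells higher past the threshold and none lower. Each of these 5 calls was lost without at least 2 of the 8 single arrays. Of all features, 0.299% were higher past the threshold in RIE-Ras cells and 0.0172% in RIE cells. Over both lines 8 of the 14 list genes rose past the threshold, where 1.16% of all features did. Among them were Gadd45b (2.01 ± 0.15), Smad7 (1.60 ± 0.14), Bhlhe40 (1.45 ± 0.17) and Tgif1 (0.63 ± 0.07), and the Gadd45b and Smad7 calls held without each single array. The Bhlhe40 and Tgif1 calls were each lost without 2 of the 8 single arrays. Each of the other calls, Junb and Ccn2 among them, was lost without 6 or 7. The lists and their members were chosen with earlier results of these data known, so the order of the lists and the count of 8 of 14 are descriptions.

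**Figure D4:**
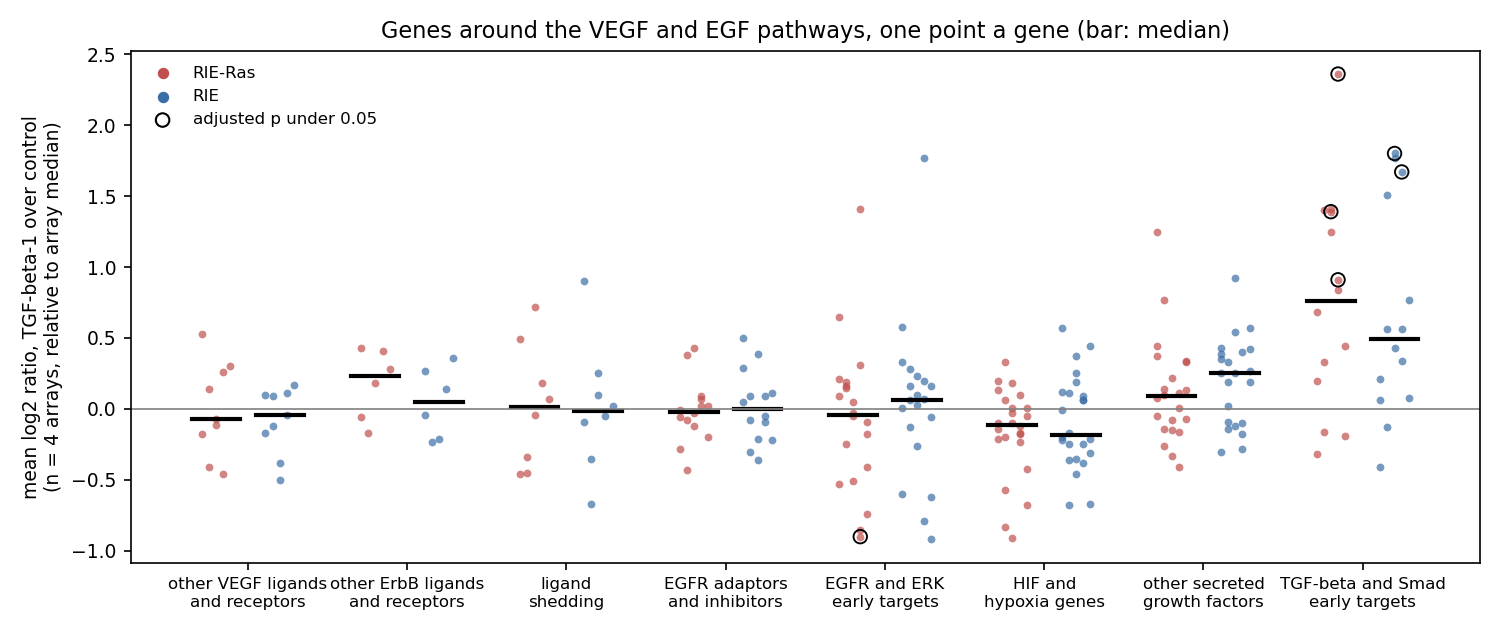
Mean log2 ratio of treated over control signal, relative to the array median, for each measured gene of 8 lists around the VEGF and EGF pathways (red, RIE-Ras; blue, RIE; bar, median of the list; ring, limma adjusted p under 0.05 in that line). The TGF-beta and Smad early targets have medians of 0.76 and 0.49, while the medians of the other VEGF ligands and receptors are -0.07 and -0.04, in RIE-Ras and RIE cells.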

How the data were processed

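The authors deposited 1 log2 ratio per feature and array, treated (channel 2) over control (channel 1) per the labels, for 20500 features. The log2 scale was found from the values: 100% of folds, in either direction, were whole multiples of 0.01 (tolerance 0.01 of a step). The sources used here do not give scanner, dyes, background correction or normalization, and no intensities were used.

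Each array was centred on its median. Features were named from the platform annotation: 12750 had 1 symbol, 5 several and 7745 none; symbols were updated through the GRCr8 gene table. Averaging features of 1 symbol left 17402. One limma 3.58.1 model in R 4.3.3 covered all 8 arrays (lmFit, eBayes, two-sided, Benjamini-Hochberg over all features, threshold 0.05), with a mean per line and the contrast RIE-Ras minus RIE; the mean of both lines was added after seeing the data. The SE is the moderated one, with 6 residual and 2.71 prior degrees of freedom. The fit was tested on simulated data. The genes, lists and tests were chosen with earlier results of these data known. Of each list, the rule allowed members past the threshold and the 4 with the smallest p per comparison, and the text names a part of these, picked after their values were seen. The number of arrays limits the precision. Alternatives were the centring, scaling, quantile normalization, single features, repeated fold values, limits of -3 and 3, robust eBayes, array weights, single lines, a threshold of 0.10, the replicate block, RIE replicates 3 and 4 averaged (they correlated with r = 0.688), and each array left out.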

Additional observations from a re-analysis of the deposited data

Results flagged for a closer look

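In each line the 4 arrays were checked for one that stood far from the other 3, over the 6 genes, the other genes named and the medians of 8 lists. Of 98 sets of 4 arrays 10 had such an array, which is 10.2%, where chance gives about 1 in 20 for a single set. None of them belonged to Vegfa or an EGFR ligand. The sets overlap, since list medians include some of the named genes, and genes were named after their values were seen. The share of 10.2% is therefore a description and not a test. In RIE cells Bhlhe40 stood apart on replicate 1 (2.65, against 1.04 to 1.21 on the other arrays), as did Smad7 (2.59, against 1.45 to 1.61), Junb (3.63, against 0.99 to 1.26) and the medians of the TGF-beta and Smad early targets (0.99, against 0.25 to 0.37) and of the EGFR adaptors and inhibitors (0.24, against -0.01 to 0.00). Vegfa was also highest on RIE replicate 1, at 1.93, and its RIE mean without that array was 1.07. RIE replicate 3 was it for Vegfb (-0.32, against -0.06 to -0.05), Pgf (0.34, against 0.00 to 0.04) and the median of the ligand shedding list (-0.14, against 0.07 to 0.09). In RIE-Ras cells it was replicate 1 for Smad7 (1.75, against 1.24 to 1.32) and replicate 4 for Csf1 (1.63, against 0.42 to 0.61).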

How the results depend on the processing

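Vegfa stayed above 0 under every alternative in RIE-Ras cells (0.87 to 1.40), in RIE cells (0.95 to 1.64) and over both lines (0.98 to 1.52). It passed in RIE-Ras cells without centring (1.40) and at a threshold of 0.10 (1.12), and in RIE cells without centring (1.64), with array weights (0.95) and at 0.10 (1.29). Over both lines it did not pass with the replicate block (1.20, adjusted p = 0.0528) or with RIE replicates 3 and 4 averaged (1.27), and leaving out single arrays gave 1.08 to 1.31. The difference between lines was 0.06 with array weights and ran from -0.41 to 0.05 without single arrays. The count of the 6 genes past the threshold was 2 in RIE-Ras cells without centring (Vegfa and Tgfa, the second at 0.51) and 2 at 0.10 (Vegfa and Areg). Of all 17402 features, 3657 passed in RIE-Ras cells without centring and 673 at 0.10. In RIE cells the count of the 6 genes was 1, 2 and 1 without centring, with array weights and at 0.10, beside 4061, 6539 and 132 of all features. Over both lines the count of the 6 genes was 4 without centring (Vegfa, Areg, Ereg at 0.45 and Tgfa at 0.41), 0 with the replicate block, 0 with RIE replicates 3 and 4 averaged, and 0 to 2 without single arrays. The causes were not tested.

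Signs turned for small values that passed no test. In RIE cells Ereg was at -0.03 with equal spread, -0.03 after quantile normalization, -0.08 with RIE replicates 3 and 4 averaged and -0.17 to 0.18 without single arrays; Tgfa at 0.32 without centring, 0.02 with those replicates averaged and -0.17 to 0.07 without single arrays; and Egf at 0.22 without centring. In RIE-Ras cells Egf ran from -0.05 to 0.23 without single arrays. The Areg difference was 0.03 with array weights. Over both lines Btc was at 0.26 without centring, 0.07 after quantile normalization and -0.20 to 0.15 without single arrays, and Egf at 0.29 without centring and -0.09 to 0.05 without single arrays.

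Counts over all features ranged over the alternatives from 0 to 3657 in RIE-Ras cells (73 as reported), from 0 to 6539 in RIE cells (13), from 0 to 134 for the difference (0) and from 3 to 8716 over both lines (608). With the replicate block they were 0, 0 and 3 in RIE-Ras cells, RIE cells and over both lines. Deviations of same-numbered arrays correlated between lines with r from -0.052 to 0.053, and 1 of 8 arrays correlated best with its own number. These correlations over all features cannot settle whether same-numbered samples were paired. For Vegfa the moderated SE in each line was 0.13 with the replicate block and 0.24 without it. For Areg it was 0.16 with and without the block.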
